A study of Rattus norvegicus with 10 samples.

Results

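The transporters examined here were 9 members of the Slc6 family in the rat hippocampus, out of 22447 tested features and 32041 features in all. They were Slc6a6, Slc6a7, Slc6a8, Slc6a9, Slc6a11, Slc6a13, Slc6a15, Slc6a17 and Slc6a20b, each found by its rat symbol as 1 row of the count matrix, and all 9 passed the filter on low counts. Slc6a20b was picked because it was higher in every stimulated rat than in any sham rat. It was selected on its CPM values in this same comparison, which is therefore given for Slc6a20b as a description, with no test. For the other 8 genes the choice names no measured value.

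Slc6 proteins sit in the cell membrane or in vesicle membranes and draw their substrate in with sodium, and most of them also with chloride. In the brain they end transmission by GABA and glycine and supply cells with taurine, creatine, proline and other neutral amino acids. GABA is taken up by neurons and by astrocytes, and the transporters on astrocyte processes set the GABA level outside synapses, which makes the family a long-standing subject of epilepsy research.

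Polyadenylated RNA was taken from 10 male rats of the outbred Sprague-Dawley strain, in left hippocampal tissue with the CA3 field and the dentate gyrus. All rats carried electrodes, the stimulating one in the left lateral amygdala, implanted under isoflurane after butorphanol. The 5 sham rats (rats 1 to 5) received no current, and the 5 stimulated rats (rats 6 to 10) received pulses of 400 µA at 60 Hz for 30 min, which evoked status epilepticus that was ended with diazepam. Tissue was taken 3 months after status epilepticus from age-matched animals, and per the study's methods every stimulated rat had spontaneous seizures by then. Diazepam went with stimulation, so the effects of these 2 treatments cannot be told apart.

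Libraries held 13552309 to 24086059 aligned counts. Unaligned reads were set against the sum of unaligned reads and aligned counts. Their share was 41.4%, 42.93% and 45.14% in stimulated rats 8, 9 and 10, above the 32.82% to 37.09% of sham rats. It was 35.55% and 32.01% in rats 6 and 7. The part of this difference in the levels below was not tested. Levels are CPM, that is counts brought to equal library size by trimmed-mean (TMM) factors. The log2 ratio of a gene is its fitted log2 fold change, stimulated over sham, and p-values are from edgeR's quasi-likelihood test unless another tool is named. At an adjusted p-value under 0.05 there were 0 of 22447 features (0%), and at an unadjusted one 2214 (9.86%). DESeq2 gave 33 features past the adjusted threshold and edgeR's likelihood ratio test 119. Defining markers of the dissected fields were counted in every group: the summed level of 7 dentate granule cell genes was 323.5 to 400.0 CPM over sham rats, against 239.8 to 443.8 CPM over stimulated rats, and that of 8 CA3 genes was 487 to 555 and 476.5 to 607 CPM. CA1 genes were present as well, at 186 to 306 and 110.1 to 366 CPM for 7 genes. The dentate sums below the sham range were those of rats 7 and 10, at 239.8 and 273.8 CPM. The highest CA3 sum, 607 CPM, was in rat 7, and the lowest CA1 sum, 110.1 CPM, in rat 10. Stimulated rats 7, 9 and 10 stood apart by their immediate early genes, which neurons transcribe within minutes of activity: 10 such genes summed to 751, 1745 and 710.1 CPM in these rats, to 197 and 138 CPM in rats 6 and 8, and to 147 to 188.5 CPM in sham rats.

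Promoter sequences are shown for 3 members whose values are followed rat by rat below, Slc6a17, Slc6a11 and Slc6a20b, and for Slc6a20a, the gene next to Slc6a20b. They are RefSeq sequences of the GRCr8 assembly from 250 bases before to 50 bases after a gene start, found for 7 of the 9 members. Capitals mark, on either strand, the AP-1 motif TGANTCA, the core of the cAMP response element TGACG, the CAAT box CCAAT and the GC box GGGCGG.
Slc6a17 (chr2:197843834-197844133, minus strand): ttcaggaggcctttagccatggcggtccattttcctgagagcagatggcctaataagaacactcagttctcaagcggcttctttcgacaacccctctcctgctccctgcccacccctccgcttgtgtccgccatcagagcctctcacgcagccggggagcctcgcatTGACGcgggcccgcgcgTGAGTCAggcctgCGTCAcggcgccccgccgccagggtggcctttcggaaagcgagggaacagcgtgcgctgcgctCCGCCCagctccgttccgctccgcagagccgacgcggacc
Slc6a11 (chr4:148853307-148853606, plus strand): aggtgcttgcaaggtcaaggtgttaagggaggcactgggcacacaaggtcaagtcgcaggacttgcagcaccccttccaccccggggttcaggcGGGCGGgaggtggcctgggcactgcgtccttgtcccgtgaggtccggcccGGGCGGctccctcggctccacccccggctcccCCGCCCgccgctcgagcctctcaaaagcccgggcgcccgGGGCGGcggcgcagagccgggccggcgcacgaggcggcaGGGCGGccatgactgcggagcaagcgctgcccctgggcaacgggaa
Slc6a20b (chr8:132158373-132158672, minus strand): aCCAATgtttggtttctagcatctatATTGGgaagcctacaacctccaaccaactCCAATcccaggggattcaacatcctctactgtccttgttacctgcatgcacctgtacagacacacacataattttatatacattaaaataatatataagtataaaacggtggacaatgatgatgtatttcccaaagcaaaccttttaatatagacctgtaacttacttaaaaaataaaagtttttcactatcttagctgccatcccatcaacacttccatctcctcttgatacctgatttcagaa
Slc6a20a (chr8:132199851-132200150, minus strand): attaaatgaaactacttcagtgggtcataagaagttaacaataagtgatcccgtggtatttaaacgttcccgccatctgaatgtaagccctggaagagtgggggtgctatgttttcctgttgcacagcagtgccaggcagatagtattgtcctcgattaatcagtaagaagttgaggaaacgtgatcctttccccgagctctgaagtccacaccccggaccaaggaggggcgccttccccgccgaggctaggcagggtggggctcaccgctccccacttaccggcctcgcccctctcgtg
The Slc6a17 promoter held 1 AP-1 motif, 66 bases before the start, and 2 cores of the cAMP response element, at 83 and 53 bases before it, and 1 GC box, with no overlap between matches. An AP-1 motif was present in 7.33% and this core in 21.2% of 33469 promoters of the same length. No other member with a sequence had an AP-1 match, while Slc6a7 also had 1 such core. The Slc6a11 promoter had 5 GC boxes, a motif in 33.1% of promoters, and a GC content of 73.3%. The Slc6a20b promoter was poor in these bases, at 36% GC with 3 CAAT boxes (in 37.5% of promoters). A further start of Slc6a20b is on record, and its promoter held none of the 4 motifs.

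Among the transporters of GABA, the astrocytic carrier Slc6a11 (GAT-3, NM_024372) had nearly equal levels in sham rats and levels far apart in stimulated rats. Its values in sham rats 1 to 5 were 36.9, 34.4, 35.5, 34.2 and 37.8 CPM. In stimulated rats 6 to 10 they were 45.1, 19.3, 37.2, 38.4 and 21.8 CPM. Rats 7 and 10 lay below every sham rat and rats 6 and 9 above every sham rat, so the groups overlapped on both sides. The means, 35.8 ± 1.56 CPM over sham rats, against 32.4 ± 11.3 CPM over stimulated rats (SD, 5 rats a group), differed by less than the spread between rats, with a log2 ratio of -0.14 (SE 0.198, adjusted p = 0.845). The SD of Slc6a11 was 7.2 times as large in stimulated as in sham rats. A ratio at least as large was found for 2.58% of 19415 features with a mean count of 20 or more, whose median ratio was 1.41.

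Astrocyte markers were looked at in rats 7 and 10, where Slc6a11 was low. The summed level of 10 astrocyte markers was 11615 CPM in rat 7 and 10432 CPM in rat 10, against 5986 to 6852 CPM in sham rats. Much of this was the filament gene Gfap, at 6469 and 5396 CPM in these rats. Without Gfap, the other 9 markers summed to 5146 and 5036 CPM, inside the sham range of 4367 to 5242 CPM. Glul alone gave 2020 and 1543 CPM of these sums, which speak mainly for the most counted genes. Single astrocyte genes, picked for mention after their values were seen, parted in these rats: the folate enzyme Aldh1l1 was counted at 16.4 CPM in rat 7 and 29.3 CPM in rat 10, below its sham range of 40.5 to 50.9 CPM, while the glutamate carrier Slc1a3 was counted at 749 and 687 CPM, above its sham range of 515.1 to 628.5 CPM. The part of these genes in the Slc6a11 values was not tested. In a bulk tissue sample, fewer cells of a type and less RNA per cell cannot be told apart.

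Rats 7 and 10 were also the lowest stimulated rats for Slc6a9 and Slc6a13 and, in the other order, for Slc6a15. These rats were singled out after their values were seen. The summed dentate granule cell genes were below the sham range in the same 2 rats, and the part of tissue composition in their transporter levels was not tested. Over the 19416 tested features with a mean count of 20 or more, 14% had the same pair as the 2 lowest stimulated rats and 7.96% had both below all sham rats as well. The same pair was highest for Slc6a7 and Slc6a20b, as for 14.2% of those features.

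**Figure D1:**
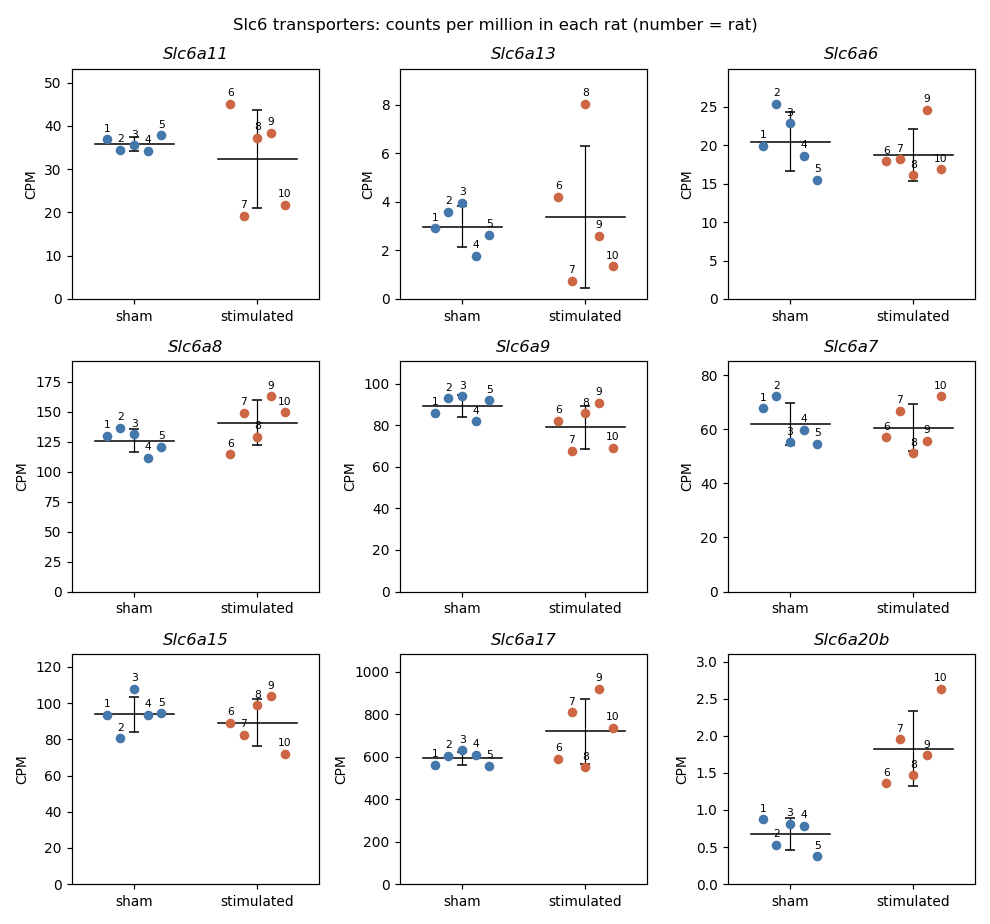
CPM (vertical axis, from 0) of each of the 9 transporters in sham and stimulated rats. Each point is a rat, labelled with its number, the horizontal line is the group mean and the bar is 1 SD (n = 5). Slc6a20b is the 1 gene whose groups do not overlap, and rats 7 and 10 are low for Slc6a11 and Slc6a13.

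GAT-2, the product of Slc6a13 (NM_133623), carries GABA and taurine and is known from the membranes around the brain and from its blood vessels. Its level was low and its counts few, 43 to 73 per sham rat and 16 to 126 per stimulated rat. In sham rats 1 to 5 it was counted at 2.91, 3.59, 3.97, 1.78 and 2.64 CPM. Stimulated rats 6 to 10 had 4.21, 0.743, 8.05, 2.60 and 1.34 CPM. Rats 6 and 8 exceeded every sham rat and rats 7 and 10 were under every sham rat. For rat 8 the exact 95% Poisson interval of the count, 6.7 to 9.58 CPM, lay above the interval of each sham rat, the highest of which reached 4.996 CPM. This interval covers counting error only. The fitted log2 ratio was 0.18 (SE 0.486, adjusted p = 0.929), and it became -0.42 without rat 8. The median of stimulated rats, 2.60 CPM, was below the sham median of 2.91 CPM although their mean was higher.

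Markers of leptomeningeal and perivascular fibroblasts had their highest summed level in rat 8, the rat with the highest Slc6a13. The summed level of 17 such genes was 508 CPM in rat 8, 279.7 to 332 CPM in the other stimulated rats and 257 to 322 CPM in sham rats. Among them, and named after their values were seen, Igf2 was counted at 30.5 CPM in rat 8 and Col3a1 at 12.9 CPM, beside at most 11.1 and 4.19 CPM in sham rats. Col3a1 was above its sham range in rats 7 and 10 too, at 5.01 and 8.05 CPM. Some other members did not stand apart in rat 8, with Lum at 7.53 CPM and Fbln1 at 41.3 CPM. Both were inside their sham ranges, of 4.41 to 9.89 and 37.5 to 43.1 CPM. None of the 17 markers was at 0 in all rats, and 16 of them had a log2 ratio above 0, as had 52.2% of all tested features. The median of the 17 was 0.47, beside 0.01 over all tested features. In rats 7 and 10, where Slc6a13 was lowest, the summed level of 279.7 and 300.2 CPM was inside the sham range. Rat 6, above every sham rat for Slc6a13, was inside it as well, at 293 CPM. The list is not specific in each member, since Ptgds, its most counted gene, is also made by oligodendrocytes. Without Ptgds the other 16 genes summed to 229 CPM in rat 8, to 182 CPM in rat 7 and 207 CPM in rat 10, and to at most 155.1 CPM in a sham rat. Markers of vessel cells were above the sham range in rat 8 too. Endothelial genes summed to 251 CPM there, beside at most 211 CPM in a sham rat. Pericyte and smooth muscle genes summed to 190 CPM, beside at most 149 CPM. Both sums were highest in rat 10, at 373 and 219 CPM, where Slc6a13 was low. The part of fibroblasts or vessel cells in the Slc6a13 values was not tested. The summed level of 13 choroid plexus markers was 88.4 CPM in rat 8, beside 76.1 to 117 CPM in sham rats. Most of it was Enpp2, at 69.5 CPM, so the sum says little of the other members. In rat 8 Ttr, at 6.58 CPM, was inside its sham range of 0.744 to 13.6 CPM. Kl, at 1.09 CPM from 17 counts, was above its sham maximum of 0.544 CPM. So were Kcnj13, at 0.639 beside at most 0.490 CPM, and Sostdc1, at 1.60 beside at most 1.53 CPM. The rest of the list were not above their sham maximum in rat 8.

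Genes that make, store and break down GABA showed no feature past the adjusted threshold. Of 7 fixed genes, 6 were tested, and 0 of 6 had an unadjusted p-value under 0.05, beside 9.86% of all tested features. A log2 ratio below 0 was found for 4 of 6, where 52.2% of all tested features were above 0. The median of the 6 was -0.05. Gad1, which makes GABA, was counted at 164.6 ± 17.2 CPM over sham rats, against 142 ± 24.2 CPM over stimulated rats (SD, 5 rats a group), and its 2 lowest rats were rat 10 at 114 CPM and rat 7 at 120.5 CPM. Abat, which breaks GABA down, likewise had its 2 lowest values in rats 10 and 7, at 55.6 and 56.9 CPM beside 70.2 to 83.9 CPM in sham rats. This pair was the 2 lowest stimulated rats for 14% of features. Aldh9a1 shared it, at 46.2 CPM in rat 7 and 51.3 CPM in rat 10, beside 47.6 to 59.7 CPM in sham rats. Gad2, Slc32a1 and Akr7a2 did not share it. Gad2 was at 34.9 and 28.7 CPM in rats 7 and 10, inside its sham range of 26.0 to 36.2 CPM. Slc32a1 was at 45.7 CPM in rat 7 and 74.3 CPM in rat 10, below and above its sham range of 52.9 to 62.2 CPM.

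**Figure D2:**
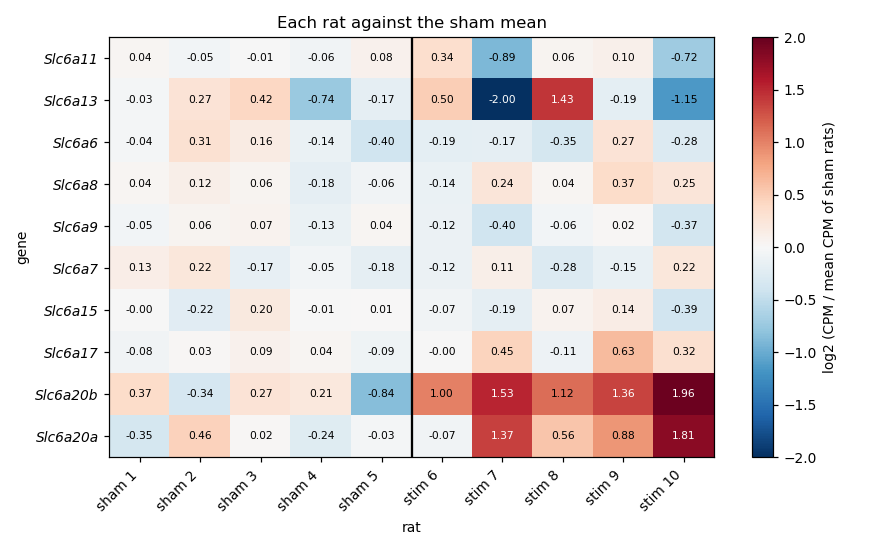
Log2 ratio of each rat's CPM to the mean CPM of the sham rats (colour and printed value), for the 9 transporters and the neighbouring gene Slc6a20a (rows) in 10 rats (columns, sham left of the line). Rats 7 and 10 have values of -0.89 and -0.72 for Slc6a11, and positive values for Slc6a17, Slc6a20a and Slc6a20b.

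Slc6a9 (GlyT1, NM_053818), the glial glycine carrier that also tunes glycine at NMDA receptors, was counted at 86.03, 92.97, 93.9, 81.9 and 91.95 CPM in sham rats 1 to 5. The values of stimulated rats 6 to 10 were 82.1, 67.7, 85.8, 90.7 and 69.1 CPM. Rats 7 and 10 were the 2 rats below the sham range. Its log2 ratio was -0.18 (SE 0.0977, adjusted p = 0.564). In the list of glycine receptors and glycine breakdown, 8 of 12 genes were tested, 1 was higher with an unadjusted p-value under 0.05 and 0 were lower (6.7% and 3.16% of all tested features), with a median log2 ratio of 0.06. That gene was the glycine receptor subunit Glra1, at 2.09 CPM in rat 7 and 3.04 CPM in rat 10 and at most 0.465 CPM in any other rat, with 3 of these 8 rats at 0 counts. Dld and Gcsh, of the glycine cleavage system, and the receptor anchor Gphn had overlapping groups, with log2 ratios of 0.09, 0.13 and 0.02.

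Slc6a6 (TauT, NM_017206), the taurine carrier, did not separate the groups. Its level ran from 15.5 to 25.4 CPM with a median of 19.95 CPM in sham rats. In stimulated rats it ran from 16.1 to 24.6 CPM with a median of 17.9 CPM. The stimulated range lay wholly inside the sham range, and the log2 ratio was -0.12 (SE 0.152, adjusted p = 0.824). Among 5 tested genes of taurine synthesis, Csad had a log2 ratio of 0.15 and Cdo1 alone had an unadjusted p-value under 0.05 (9.86% of all tested features). This cysteine dioxygenase was counted at 209 CPM in rat 7 and 128 CPM in rat 10, at 71.4 to 86.2 CPM in the other stimulated rats and at 72.02 to 86.96 CPM in sham rats, with a log2 ratio of 0.55 (SE 0.239, adjusted p = 0.472).

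Slc6a8 (NM_017348), the creatine carrier, had levels of 129.9, 137, 131, 112 and 121 CPM in sham rats 1 to 5. Stimulated rats 6 to 10 had 114, 149, 129, 163 and 149 CPM. The 3 rats above the sham range were rats 7, 9 and 10, the same 3 with high immediate early genes. The share of all tested features with these 3 rats above the sham range was not counted. The log2 ratio of 0.16 (SE 0.102) had an adjusted p-value of 0.61 in edgeR's quasi-likelihood test. Creatine synthesis and creatine kinase genes had 0 of 5 tested members with an unadjusted p-value under 0.05 in this test (9.86% of all tested features). Their median log2 ratio was -0.13. The brain kinase Ckb was counted at 1257 ± 122 CPM over sham rats, against 1409 ± 186 CPM over stimulated rats (SD, 5 rats a group), and the mitochondrial kinase Ckmt1 at 296 ± 25.7 and 269.7 ± 22.7 CPM.

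Slc6a17 (NTT4, NM_001033079), a carrier of neutral amino acids on synaptic vesicles, was the 1 of the 8 tested members with an unadjusted p-value under 0.05. Sham rats 1 to 5 had 561, 605, 630.1, 608 and 556 CPM. Stimulated rats 6 to 10 had 590.3, 809, 549.5, 919 and 737 CPM. Rats 7, 9 and 10 were above every sham rat, rat 6 was within the sham range and rat 8 was just below it. The mean was 592 ± 32.02 CPM over sham rats, against 721 ± 153 CPM over stimulated rats (SD, 5 rats a group), a log2 ratio of 0.28 (SE 0.123). The unadjusted p-value was 0.0375 and the adjusted one 0.471, so the difference did not pass. The unadjusted p-value was above 0.05 when sham rat 1, 2, 4 or 5 or stimulated rat 7, 9 or 10 was left out, and reached 0.124 without rat 9, where the log2 ratio was 0.18. By this unadjusted measure 1 of 8 members was higher and 0 were lower, beside 6.7% and 3.16% of all tested features.

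The rats with high Slc6a17 were those with high immediate early genes. Rat 9 had the highest value of both, at 919 CPM for Slc6a17 and 1745 CPM for the summed immediate early genes. Rats 6 and 8 were in or next to the sham range for both. The share of all tested features that were highest in the same rats was not counted, so this match has no background beside it. The part of recent activity in the Slc6a17 level was not tested, and the AP-1 and cAMP response element matches in its promoter are letters in a sequence window that carry no measurement of binding. Neuron markers were within the sham range in all stimulated rats, at 7291 to 7736 CPM for 10 genes beside 7093 to 8264 CPM.

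**Figure D3:**
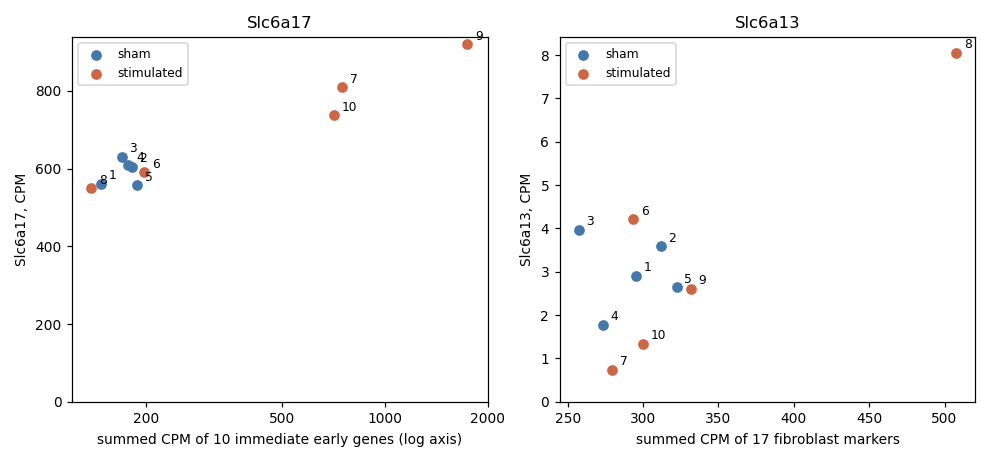
Left, CPM of Slc6a17 against the summed CPM of 10 immediate early genes (logarithmic axis). Right, CPM of Slc6a13 against the summed CPM of 17 fibroblast markers. Points are rats, labelled with their number, in blue for sham and orange for stimulated. Rats 7, 9 and 10 are apart on the left, and rat 8 is apart on the right at 508 CPM of fibroblast markers.

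Slc6a15 (NM_172321), a neuronal carrier of branched-chain amino acids and proline, had a range of 80.5 to 108 CPM and a median of 93.6 CPM in sham rats. The stimulated range was 71.9 to 104 CPM with a median of 89.2 CPM. Rat 10 was the 1 stimulated rat outside the sham range. The log2 ratio was -0.07 (SE 0.11, adjusted p = 0.862).

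Slc6a7 (PROT, NM_053996), the proline carrier of excitatory nerve endings, ran from 54.6 to 72.2 CPM in sham rats and from 51.1 to 72.1 CPM in stimulated rats. Its mean hardly differed, with a log2 ratio of -0.03 (SE 0.117, adjusted p = 0.953). Its SD was 1.11 times as large in stimulated as in sham rats, below the median ratio of 1.41 over features with a mean count of 20 or more.

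Slc6a20b (XM_002729986), a predicted record for a close relative of the proline and imino acid carrier Slc6a20a, was counted in sham rats 1 to 5 at 0.873, 0.534, 0.816, 0.785 and 0.377 CPM. Stimulated rats 6 to 10 had 1.36, 1.95, 1.47, 1.73 and 2.63 CPM. This separation chose the gene, as 1 of 156 features (0.695%) whose stimulated values were all higher, and nothing is read from it. The counts behind it were 7 to 19 per sham rat and 23 to 51 per stimulated rat. The edges of the groups were close: the highest sham rat, rat 1, had an exact 95% Poisson interval of 0.488 to 1.44 CPM and the lowest stimulated rat, rat 6, one of 0.916 to 1.94 CPM. The mean was 0.677 ± 0.212 CPM over sham rats, against 1.83 ± 0.505 CPM over stimulated rats (SD, 5 rats a group), with a fitted log2 ratio of 1.43 (SE 0.307). Among stimulated rats the level was highest in rats 10 and 7 and lowest in rats 6 and 8.

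Slc6a20a (NM_133296), its neighbour on chromosome 8 with no annotated gene between them, was not among the 9 genes and gave the same order of stimulated rats. Sham rats 1 to 5 had 3.37, 5.88, 4.35, 3.64 and 4.19 CPM. Stimulated rats 6 to 10 had 4.07, 11.1, 6.32, 7.91 and 15.02 CPM. Thus 4 of 5 stimulated rats exceeded all sham rats, and rat 6 fell inside their range. The log2 ratio was 1.06 (SE 0.297), with an unadjusted p-value of 0.00318 and an adjusted p-value of 0.38 in edgeR's quasi-likelihood test. The study, whose methods count fewer stimulated rats, listed this record as upregulated at its own cut-off. How a read that matched both genes was counted was not given in the sources used here, so the values of this pair may not be independent measurements.

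The features most like Slc6a20b across the 10 rats were records of 1 gene, the water channel Aqp4 of astrocyte end-feet. Of 11775 other tested features with a symbol and a mean count of at least 20, the 4 with the highest Pearson r of log2 CPM were Aqp4 transcripts, which overlap in sequence, with r from 0.93 to 0.95 and Spearman rho from 0.94 to 0.98. The next was the membrane protein gene Bri3bp (r = 0.91, rho 0.89). Without the 2 rats farthest from the median of Slc6a20b, r was 0.90 to 0.93 for the Aqp4 records and 0.96 for Bri3bp over 8 rats. These values were chosen as the highest, include the difference between groups and share libraries, and have no p-value. Since Slc6a20b was picked for its separated groups, features most like it tend to separate them too, and nothing is read from the group values of Aqp4. The 7 to 51 counts of Slc6a20b in a rat limit the precision of any such likeness.

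Proline metabolism was followed over 10 genes, all tested, of which 2 were higher and 0 lower with an unadjusted p-value under 0.05 (6.7% and 3.16% of all tested features), with a median log2 ratio of 0.06. P4ha1, which hydroxylates proline in collagen chains, had the lowest p-value. It was counted at 42.9 to 50.1 CPM over sham rats, against 55.2 to 89.2 CPM over stimulated rats, without overlap (as were 0.695% of all tested features in this direction), with a log2 ratio of 0.52 (SE 0.124, adjusted p = 0.376). Pycr1, which makes proline, was at 3.37 ± 0.443 CPM over sham rats, against 5.13 ± 1.69 CPM over stimulated rats (SD, 5 rats a group, adjusted p = 0.423). The study listed Pycr1 as upregulated at its own cut-off. Oat, the ornithine aminotransferase, was at 85.3 ± 3.36 and 79.9 ± 8.35 CPM.

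**Figure D4:**
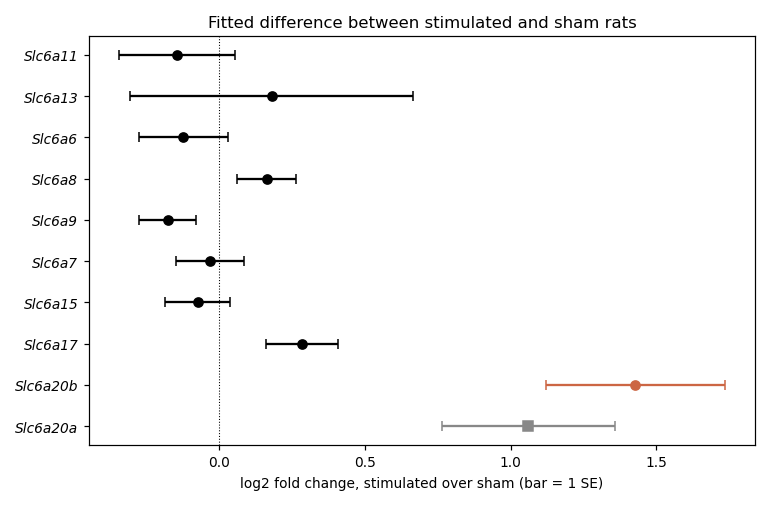
Fitted log2 fold change, stimulated over sham (horizontal axis), with 1 SE, for the 9 transporters (circles) and for Slc6a20a (grey square). The 8 black circles lie between -0.18 and 0.28, and the orange one, Slc6a20b, picked for its difference, lies at 1.43.

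Set side by side, the 8 members other than Slc6a20b were split, with 3 above and 5 below a log2 ratio of 0, where 52.2% of all tested features were above it. Their median was -0.05, beside 0.01 over all features. At an adjusted p-value under 0.05 there were 0 of 8 in edgeR's quasi-likelihood test, DESeq2, limma-voom and edgeR's likelihood ratio test, with 1 of 8 at an unadjusted p-value under 0.05 in each. The SD was larger in stimulated than in sham rats for 7 of 8, from 1.11 times for Slc6a7 to 7.2 times for Slc6a11, and Slc6a6 had a ratio of 0.889. A larger SD in stimulated rats was common over features with a mean count of 20 or more. Their median ratio was 1.41 and 64.9% of them were at or above the ratio of Slc6a7. Nothing particular to the members is read from this count of 7 of 8. Of the 9 members, 1 had groups without overlap, and this was Slc6a20b, where 1.29% of all tested features had none in either direction. Slc6a17 was the most counted member, with a mean of 12852 counts per rat, and Slc6a20b the least, with 24.5 counts per rat. Levels were not compared between genes, since no transcript lengths were used.

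The other family members were looked up by 12 names, 10 of which were found in the matrix. Slc6a2, Slc6a3 and Slc6a4, the carriers of noradrenaline, dopamine and serotonin, whose neurons have their cell bodies outside the hippocampus, had at most 4 counts in any rat. Slc6a18 and Slc6a19 had at most 3 counts and Slc6a14 had 0 in each rat. In the largest library, before scaling, 3 counts correspond to 0.125 CPM. The betaine and GABA carrier Slc6a12, next to Slc6a13, had at most 16 counts in a rat and a log2 ratio of -0.62 (SE 0.954). Of the 4 tested, 1 was higher with an unadjusted p-value under 0.05 (Slc6a20a) and 0 were lower, beside 6.7% and 3.16% of all tested features.

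Other carriers of neutral amino acids were measured through 15 genes, all tested, with 2 higher and 0 lower with an unadjusted p-value under 0.05, beside 6.7% and 3.16% of all tested features, and a median log2 ratio of 0.07. The 2 genes encode the light and heavy chains of 1 carrier of large neutral amino acids. Slc7a5 was counted at 80.8 ± 3.46 CPM over sham rats, against 105.8 ± 21.6 CPM over stimulated rats (SD, 5 rats a group), with a log2 ratio of 0.39 (SE 0.127, adjusted p = 0.399). Slc3a2 was counted at 70.8 ± 4.13 and 90.4 ± 12.7 CPM, with a log2 ratio of 0.35 (SE 0.103, adjusted p = 0.389). In both genes 4 of 5 stimulated rats exceeded the sham range, and rat 6 did not.

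Proteins known to bind Slc6 carriers were measured through 7 tested genes, with 0 higher and 1 lower with an unadjusted p-value under 0.05, beside 6.7% and 3.16% of all tested features. This was Pick1, a scaffold that binds monoamine carriers and glutamate receptors. Its values in sham rats 1 to 5 were 35.7, 34.7, 36.7, 34.9 and 36.2 CPM. Stimulated rats 6 to 10 had 31.99, 29.4, 32.6, 28.6 and 29.2 CPM, all below the sham rats. Its log2 ratio was -0.23 (SE 0.0831, adjusted p = 0.416), and 0.597% of all tested features had stimulated values wholly below sham values. The phosphatase subunit gene Ppp2ca had overlapping groups and a log2 ratio of 0.14.

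Markers of the cell types in the tissue were counted at an unadjusted p-value under 0.05, since 0 passed adjustment in any list. Higher in stimulated rats were 6 of 17 fibroblast genes, 5 of 10 astrocyte genes, 5 of 10 endothelial genes, 4 of 10 pericyte and smooth muscle genes, 2 of 10 microglial genes, 1 of 12 choroid plexus genes, 1 of 10 interneuron genes and 10 of 10 immediate early genes, where 6.7% of all tested features were higher by this measure and 3.16% lower. With so few genes in a list, a count of 1 is at this background. In the lists of oligodendrocytes, their precursors, neurons, dentate granule cells, CA3 and CA1 cells 0 were higher, and 0 were lower in any of these 14 lists. All 10 oligodendrocyte genes had a log2 ratio below 0, with a median of -0.16, where 52.2% of all tested features were above 0. The part of cell composition in the levels of the transporters was not tested.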

How the data were processed

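The deposited table held raw counts of reads per transcript record, which the authors made by aligning single reads of 36 cycles to the rat RN4 genome with BWA and counting them with their own script, with no normalization and no pooling of rats. The methods name an Ensembl annotation, but the rows carry RefSeq identifiers. Symbols, neighbours and promoters were taken from RefSeq tables of GRCr8, and 57.8% of tested features had a symbol. Groups came from the treatment label of each rat. The methods count fewer stimulated rats than the labels, so all labelled rats were used and each was left out in turn. No batch is named in the labels, so within-batch values could not be computed.

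Unaligned reads, which the table holds in a row of their own (32.01% to 45.14% of unaligned reads plus aligned counts), were not used. Features with a summed count under the 30th percentile (46 counts) were left out, as in the study, and 22447 were tested in R 4.3.3 by edgeR 4.0.16 (quasi-likelihood, default settings, TMM factors). The model had no covariate, and p-values were adjusted over all tested features by Benjamini-Hochberg. The SE is the log2 fold change divided by the root of the F statistic. Log2 CPM had a prior count of 2. Alternatives used other normalizations and filters, DESeq2 1.42.0, limma 3.58.1 and the likelihood ratio test. The procedure was tested on simulated data. The members and gene lists were chosen with earlier results of these data known. From each list of related genes the most counted and those with the lowest p-values were named, 2 each, together with the 5 features most like Slc6a20b and Slc6a13. The 2 most counted genes of each marker list were to be named as well and are given where a result turns on them. Some listed genes are not reported here. Rats were outbred animals processed singly. Genes with close copies are uncertain, since the counting of shared reads and the use of strand were not given in the sources used here. Plots were drawn with matplotlib 3.10.9.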

Additional observations from a re-analysis of the deposited data

Results flagged for a closer look

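Of 26 groups of 5 Slc6 values, 2 held a rat whose distance from the next value, as a share of the group's range, exceeded Dixon's critical value of 0.71, where 1.3 are expected by chance. Rat 9 was apart for the taurine carrier Slc6a6 among stimulated rats, at 24.6 CPM with a gap of 0.758 of the range. It was still within the range of the sham rats. Sham rat 2 was apart for the betaine and GABA carrier Slc6a12, at 1.22 CPM from 16 counts with a gap of 0.789 of the range, beside 1 to 5 counts in each other sham rat.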

How the results depend on the processing

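No paired analysis was possible because the rats of the 2 groups share no number. No member other than Slc6a20b had an adjusted p-value under 0.05 in any alternative, and leaving out each rat in turn gave 0 to 0 such members and 0 to 0 features in all. Over all features, 119 passed in edgeR's likelihood ratio test and 33 in DESeq2, where the quasi-likelihood test gave 0, and the cause was not tested. The count of members with an unadjusted p-value under 0.05 was 1 in each alternative that kept all rats and 0 to 2 when each rat was left out: it was 0 without sham rat 1, 2, 4 or 5 or without stimulated rat 7 or 10, and 2 without stimulated rat 6. Without stimulated rat 9 the 1 member was Slc6a9 and no longer Slc6a17, whose log2 fold change then was 0.18. The log2 ratio of Slc6a13 reversed to -0.24 in limma-voom and to -0.42 without stimulated rat 8, and the highest value over the rats left out was 0.44. The cause of the change in limma-voom was not tested. That of Slc6a7, close to 0, became 0.023 without sham rat 2 and 0.0096 without stimulated rat 8, within -0.10 to 0.023 over the rats left out. The setting with adjusted deviances, added after the data were seen, changed no count of members. Depth limits Slc6a20b, Slc6a13 and Slc6a12 most, with mean counts of 24.5, 58.8 and 5.5 per rat.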

Other observations

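Among the carriers and enzymes of osmolytes, 7 of 9 fixed genes were tested and all 7 had a log2 ratio above 0, as had 52.2% of all tested features. The median of the 7 was 0.10 beside 0.01 over all tested features. Of the 7, 0 passed an unadjusted p-value of 0.05, beside 9.86% of all tested features. The myo-inositol carrier Slc5a3 was counted at 10.9 CPM in rat 7 and at 2.32 to 5.34 CPM in the other stimulated rats, beside 2.18 to 3.68 CPM in sham rats. The choline carriers Slc44a1 and Slc5a7 were counted at 53.4 ± 6.47 and 0.701 ± 0.395 CPM in sham and 57.2 ± 4.33 and 1.27 ± 0.642 CPM in stimulated rats (SD, 5 rats a group). Nfat5, a factor of the response to high salt, was at 50.5 ± 8.2 and 56.01 ± 6.38 CPM.

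Named after its values were seen, the neuronal glycine carrier Slc6a5 (GlyT2), best known from spinal cord and brainstem, was counted at 1.72 to 4.503 CPM over sham rats, against 2.08 to 5.99 CPM over stimulated rats, from 36 to 116 counts per rat. Rats 9 and 10 were above all sham rats, and the log2 ratio was 0.27 (SE 0.341, adjusted p = 0.829).

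The features most like Slc6a13 across the 10 rats by the Pearson r of log2 CPM were Med22 (r = 0.93), Arap2 (0.92), Tp73 (0.92), Rfx5 (0.92) and Foxo1 (0.90), with Spearman rho from 0.81 to 0.95. Without the 2 rats farthest from the median of Slc6a13, r was 0.77 to 0.86 over 8 rats. These were chosen as the highest of 11775 features, and no p-value is given.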
